A study of Mus musculus with 2 samples.

Results

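The growth hormone, STAT5 and IGF1 axis of the liver was followed as 9 genes out of the 24377 genes counted in these libraries. The members were taken by gene name as the receptor (Ghr), its kinase (Jak2), the transcription factors (Stat5a, Stat5b), the feedback inhibitors (Socs2, Cish) and the secreted output (Igf1, Igfals, Igfbp3). All 9 were found, each once, and all 9 had a summed count of at least 20. The libraries came from male C57BL/6J mice (C57BL/6 in the sample labels), 9 to 11 weeks old, which were fasted for 10 h and then received 300 mg/kg acetaminophen (APAP), a dose that injures the liver. Livers were taken 30 h later. In the vehicle pool the mice had also received 4 doses of the vehicle of AZD7986. In the AZD7986 pool they had received 4 oral doses of 5 mg/kg AZD7986, an inhibitor of the protease cathepsin C, the first 12 h before APAP, the next with APAP and the last 2 at 12 h and 24 h. Each pool mixed the liver RNA of 8 mice and gave 1 library, so both libraries carry APAP and no library without it was used here. The comparison asks how the axis stood in the injured liver with and without the inhibitor.

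Growth hormone from the pituitary binds its receptor on hepatocytes and activates the kinase JAK2, which phosphorylates STAT5A and STAT5B. STAT5 then enters the nucleus and switches on Igf1, Igfals and its own inhibitors Socs2 and Cish. Insulin-like growth factor 1 circulates in a complex with its binding protein IGFBP3 and the acid labile subunit encoded by Igfals. In the mouse the liver makes most circulating IGF1, and the pulsed release of growth hormone in males sets much of the sex difference in liver genes.

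None of the 9 members differed 2-fold between the pools. Igfals was 1.62-fold higher in the AZD7986 pool, Ghr 1.21-fold higher and Igf1 1.05-fold higher, and the 6 other members had intervals that include a ratio of 1. By the fold rule, a ratio of at least 2 with an interval above 1, 0 of 9 members were counted as higher, beside 1.47% of all genes and 1.85% of the 13523 genes whose summed count reached 20. By the mirrored rule, a ratio of 0.5 or less with an interval below 1, 0 of 9 were counted as lower, beside 2.01% and 2.87%. At such shares a count of 0 in 9 genes does not set the axis apart from other genes. A ratio here sets AZD7986 over vehicle, both counts being normalized through division by size factors of 1.10 (vehicle) and 0.910 (AZD7986). The range in brackets is its exact 95% interval from the binomial split of the gene's summed count. These intervals cover counting error only. With 1 library per group no test of the treatment was possible, and differences between the mice of the pools are not in any interval.

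**Figure D1:**
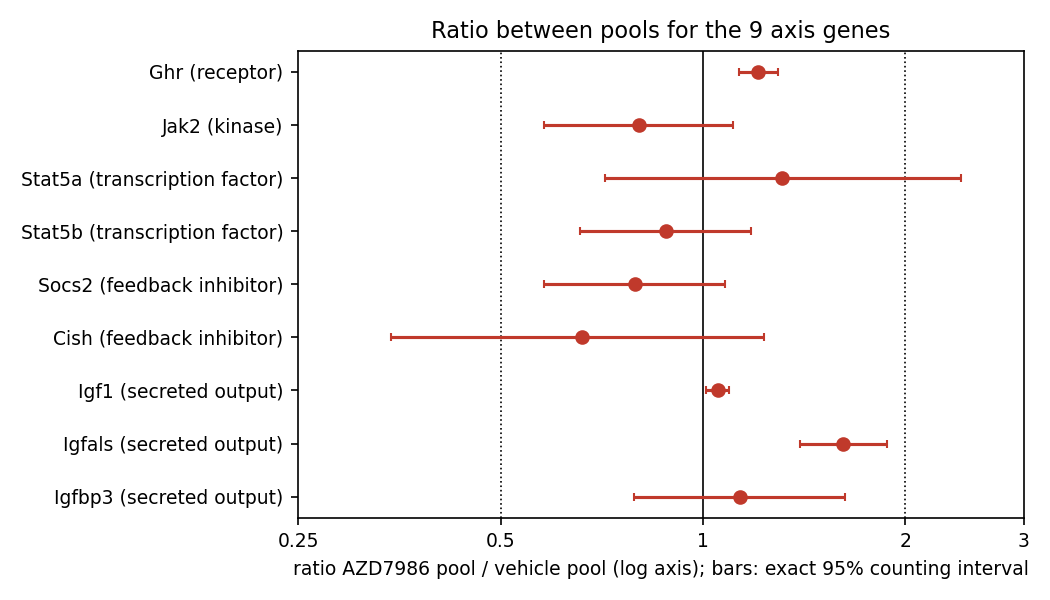
Ratio of the AZD7986 pool over the vehicle pool for each of the 9 axis genes on a log axis, with the exact 95% counting interval as a bar, a solid line at 1 and dotted lines at 0.5 and 2. Igfals, Ghr and Igf1 lie to the right of 1 with their whole interval, and the intervals of the other 6 genes cross 1.

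In the vehicle library 7657855 counts fell on 22411 genes, and in the AZD7986 library 6700838 fell on 21333. All 10 hepatocyte markers were counted in both, with ratios from 0.745 (Fgb) to 1.41 (Apob). The interval lay above 1 for 5 of them and below it for 4. Of all genes whose summed count reached 1000, as that of each of these markers did, 54.1% lay above 1 and 18.9% below it. The hepatocyte markers summed to 680224 and 553074 counts, a ratio of 0.981 after scaling. Perivenous hepatocyte markers summed to 4582 and 7442 counts (1.96 after scaling), and periportal ones to 35751 and 34470 (1.16). The perivenous sum rests mainly on Cyp2e1 (2730 and 5483 counts). Oat (1.87 [1.62, 2.16]), Glul (2.02 [1.74, 2.36]) and Slc1a2 (7.04 [3.79, 14.3]) were higher too. The interval lay above 1 for 4 of the 8 perivenous markers and below 1 for 1, beside 10.4% and 8.81% of all genes. Against the perivenous and periportal sums, perivenous Cyp1a2 was lower (0.894 [0.820, 0.975]), as was periportal Pck1 (0.676 [0.652, 0.701]). Neutrophil markers summed to 978 and 313 counts (0.386), monocyte and macrophage markers to 2912 and 1909 (0.791), and cholangiocyte markers to 268 and 102 (0.459). The cholangiocyte sum rests mainly on Sox9 (211 and 74 counts), while Krt7 had 14 and 14. Sinusoidal endothelial markers stood at 1892 and 1324 (0.845), stellate cell markers at 2820 and 2132 (0.912) and Kupffer cell markers at 3163 and 2579 (0.984). T and NK cell markers summed to 21 and 20 counts and B cell markers to 20 and 21, with Cd4, Cd79a and the neutrophil marker Ly6g at 0 in the vehicle pool and Cd3e at 0 in the AZD7986 pool. The part of these cell types in the results below was not tested. In bulk liver, fewer cells of a type and less RNA per cell cannot be told apart.

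Ghr encodes the growth hormone receptor, the entry point of the axis. It spans 3317760 to 3583492 on the minus strand of chromosome 15 (mm10). It had 1783 counts with vehicle and 1786 with AZD7986, which are 1623 and 1962 normalized counts. The nearly equal raw counts came from libraries of unequal size, and the ratio after scaling was 1.21 [1.13, 1.29]. Without any scaling it was 1.002, so the higher value of Ghr rests on correcting for library size. It was 1.14 [1.07, 1.22] when the libraries were scaled by their totals and 1.23 [1.15, 1.32] when hepatocyte markers set the scaling.

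Jak2, the kinase bound to the receptor, had 99 counts with vehicle and 66 with AZD7986, or 90.1 and 72.5 normalized counts. Its ratio was 0.805 [0.580, 1.11], so a difference was not detectable at this depth. Stat5b, the STAT5 protein that carries most of the growth hormone signal in mouse liver, had 115 and 84 counts. Its ratio was 0.882 [0.657, 1.18]. Stat5a, the related factor known for prolactin signalling in the mouse mammary gland, had 23 and 25 counts and a ratio of 1.31 [0.715, 2.42]. The interval of Stat5a reaches past 2-fold, so these libraries say little on it.

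Stat5b made up most STAT5 counts in both pools. Stat5a took 16.7% [10.9, 24.0] of the 138 STAT5 counts of the vehicle pool and 22.9% [15.4, 32.0] of the 109 of the AZD7986 pool (exact Clopper-Pearson intervals), and these intervals overlap. The ratio of Stat5a to Stat5b differed between the pools by 1.49-fold [0.752, 2.95]. The pair lies on chromosome 11 with 8626 bases between them, Stat5b from 100780731 to 100850724 on the minus strand and Stat5a from 100859351 to 100885169 on the plus strand. The annotated 3′ end of Stat5a runs into Stat3, which lies on the other strand, and 23 of 451 words of 50 bases in its last 500 bases are also in Stat3 transcripts. Stat3 had 567 and 294 counts. The sources used here do not say how reads in that overlap were assigned. For Stat5b, 0 of 451 such words are in transcripts of another gene.

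Both feedback inhibitors had ratios under 1 with intervals that include 1. Socs2, which dampens growth hormone signalling and whose loss gives giant mice, had 108 counts with vehicle and 71 with AZD7986, a ratio of 0.793 [0.580, 1.08]. Cish, the inhibitor of the same family that STAT5 induces most directly, had 31 and 17 counts, a ratio of 0.662 [0.344, 1.23]. Summed, the pair had 139 and 88 counts and a ratio of 0.764 [0.578, 1.01], which also includes 1. When the libraries were scaled by their totals, the summed ratio was 0.724 [0.548, 0.952], with the whole interval below 1. Together with Jak2, Stat5a and Stat5b, the feedback genes summed to 376 and 263 counts, a ratio of 0.844 [0.718, 0.991]. The upper bound was 1.01 when hepatocyte markers set the scaling. Each of these 5 genes alone had an interval that includes 1, and Stat5a (1.31) lay on the other side. Ghr, whose interval lay above 1, is not in this sum. Of the 451 words in the last 500 bases of Cish, 113 also lie in the antisense transcript Gm17041, which had 0 counts in both pools, and how reads there were counted is not known.

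**Figure D2:**
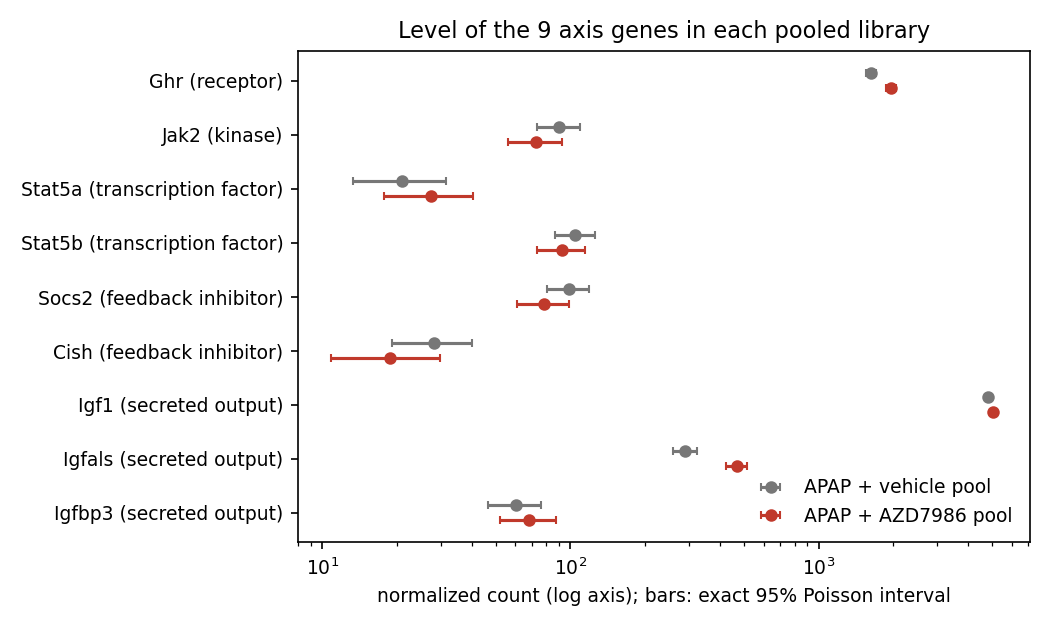
Normalized count of each axis gene on a log axis in the vehicle pool (grey) and the AZD7986 pool (red), with exact 95% Poisson intervals as bars. Igf1 and Ghr stand highest in both pools, and Cish and Stat5a lowest, with 18.7 to 28.2 normalized counts between them.

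The secreted output was dominated by Igf1. It had 5282 counts with vehicle and 4606 with AZD7986, or 4808 and 5060.1 normalized counts, a ratio of 1.05 [1.01, 1.10]. Its place among all genes by count was 142 of 24377 with vehicle and 158 with AZD7986. With library total scaling the ratio of Igf1 was 0.997, so the direction of this small difference depends on the scaling. Igf1 spans 87858265 to 87937042 on chromosome 10, where its antisense gene Igf1os had 6 and 10 counts.

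Igfals was higher with AZD7986, also relative to Igf1. It encodes the acid labile subunit, which keeps IGF1 and IGFBP3 in the circulation, and it had 318 counts with vehicle and 426 with AZD7986. These are 289 and 468 normalized counts, a ratio of 1.62 [1.39, 1.88]. Igfals was the one member with more raw counts in the smaller library by more than a few reads, and its interval lay above 1 under every scaling tried, including none (1.34 without scaling). The gene lies on chromosome 17, from 24865997 to 24882010.

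Igfbp3, the main carrier of IGF1 in blood, had 66 and 62 counts and a ratio of 1.13 [0.789, 1.63], or 0.939 without scaling. In rat liver it is made by Kupffer and endothelial cells rather than by hepatocytes. The Kupffer and sinusoidal endothelial markers given above had summed ratios of 0.984 and 0.845, and the ratio of Igfbp3 was not detectably different from 1 at this depth. Markers within both sums went either way. The interval lay above 1 for 2 of 7 Kupffer markers and below 1 for 1. For endothelial markers it lay above 1 for 2 of 9 and below 1 for 5. Among all genes, 10.4% lay above 1 and 8.81% below. Leaving out Igf1, the other 2 outputs summed to 384 and 488 counts, a ratio of 1.53 [1.34, 1.76] that rests mainly on Igfals.

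Since reads come from the 3′ end of transcripts, counts were not divided by gene length when the members were ordered by level. In the vehicle pool the order of normalized counts was Igf1, Ghr, Igfals, Stat5b, Socs2, Jak2, Igfbp3, Cish and Stat5a. The first 3 stood apart from each other and from the rest. Stat5b, Socs2 and Jak2 lay within each other's Poisson intervals, as did Cish (28.2) and Stat5a (20.9). In the AZD7986 pool the first 7 places were the same, and Stat5a (27.5) and Cish (18.7) changed places with overlapping intervals.

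Ratios between 2 members need no scaling of the libraries, so all 36 pairs were compared by the odds ratio of their counts with its exact 95% interval. The interval excluded 1 in 10 of the 36 pairs, and 6 of these 10 include Igfals. Relative to Igf1, Igfals was higher in the AZD7986 pool, the Igf1 to Igfals ratio being 0.651 [0.558, 0.759] of that in the vehicle pool. The Socs2 to Igfals ratio was 0.491 [0.346, 0.693], the Jak2 to Igfals ratio 0.498 [0.347, 0.711] and the Cish to Igfals ratio 0.410 [0.209, 0.779] of the vehicle value. Ghr stood higher relative to Jak2 (1.5 [1.08, 2.10]), Socs2 (1.52 [1.11, 2.10]), Stat5b (1.37 [1.02, 1.85]) and Igf1 (1.15 [1.06, 1.24]). Socs2 and Cish did not separate from each other (1.20 [0.591, 2.49]), nor did Jak2 and Stat5b (0.913 [0.587, 1.42]). These 36 intervals were not widened for their number.

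By direction alone, the interval lay above 1 for 3 of 9 members, beside 10.4% of all genes and 17.9% of those whose summed count reached 20. It lay below 1 for 0 of 9, beside 8.81% and 15.1%. An interval narrows with depth, and Ghr and Igf1 are among the 1830 genes whose summed count reached 1000. Of those deep genes, 54.1% had an interval above 1 and 18.9% below it, so the interval alone does not set Ghr and Igf1 apart. The log2 ratios of Ghr (0.27) and Igf1 (0.07) lay between the 25th and 75th percentiles of the deep genes (−0.06 and 0.37). The log2 ratio of Igfals (0.69) lay between the 75th (0.27) and the 95th percentile (0.76) of genes whose summed count reached 20. Cish, at −0.60, lay between the 25th (−0.31) and the 5th percentile (−0.90) of the same genes. The median log2 ratio of the members was 0.07, beside −0.02 for those genes.

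**Figure D3:**
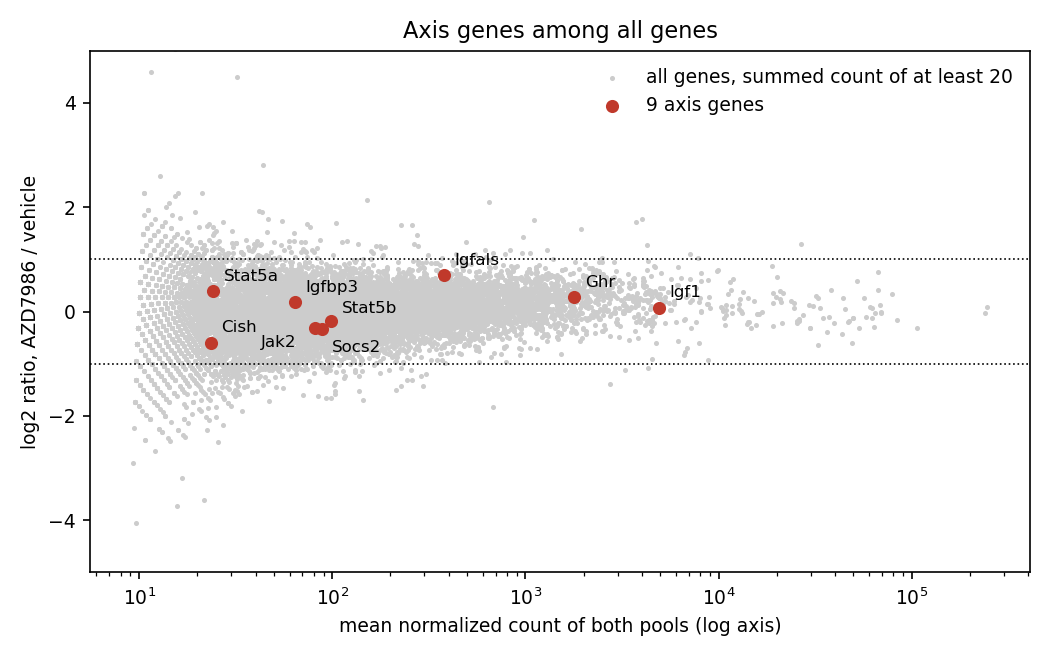
Log2 ratio of the AZD7986 pool over the vehicle pool against the mean normalized count (log axis) for 13523 genes whose summed count reached 20 (grey) and the 9 axis genes (red, named), with dotted lines at 2-fold. All 9 axis genes lie inside the dotted lines and within the cloud of other genes, and Igfals is the highest of them at 0.69.

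Sequence near the start sites was read for the letters STAT5 is known to bind, TTCNNNGAA, where N is any base. The motif reads the same on both strands in its fixed letters, so 1 strand was searched. RefSeq windows (GRCm38.p6) from 250 bases before to 50 bases after the start matched 8 of the 9 members by symbol, all but Socs2. Of these 8 members, 2 held the motif, Cish and Igfals. Among all 27025 genes with a window, 9.55% held it, and 8.30% of all 32851 windows. The Cish window held it 2 times, which 0.457% of windows do. These stretches are shown because Cish and Igfals are the members with the STAT5 letters near a start site. Capitals mark each match.

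Cish, chr9:107296559-107296678, plus strand, with matches at positions 1 and 12 counted from the RefSeq start:
Cish: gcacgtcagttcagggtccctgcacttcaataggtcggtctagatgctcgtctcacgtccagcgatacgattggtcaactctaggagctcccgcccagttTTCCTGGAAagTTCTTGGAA
Igfals, chr17:24878121-24878230, plus strand, with a match at −58, and chr17:24877594-24877703, before another start of the gene, with a match at −236:
Igfals at −58: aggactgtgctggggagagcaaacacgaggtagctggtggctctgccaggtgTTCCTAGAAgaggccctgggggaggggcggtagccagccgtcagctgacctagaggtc
Igfals at −236: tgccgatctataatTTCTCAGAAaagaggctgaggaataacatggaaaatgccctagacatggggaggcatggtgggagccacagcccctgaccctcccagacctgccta

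Both genes carry these letters, and their ratios point to different sides of 1, with Igfals at 1.62 and Cish at 0.662 with an interval that includes 1. The motif is a description of the sequence, and no binding was measured here. Igf1, Ghr, Jak2, Stat5a, Stat5b and Igfbp3 had no match in their windows, which says only that the letters are not in these 300 bases.

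Around the axis, 24 further genes were counted, from growth hormone receptor signalling and from related kinases, STATs, adaptors, phosphatases, brakes and receptors. Their median log2 ratio was −0.24. By the fold rule 2 of 24 were lower and 0 higher, beside 2.01% lower and 1.47% higher among all genes. The interval lay below 1 for 7 and above 1 for 1, beside 8.81% and 10.4%. A summed count of 20 was reached by 22 of the 24. Among all genes that reached it, 2.87% were lower and 1.85% higher, and the interval lay below 1 for 15.1% and above 1 for 17.9%. Of protein-coding genes at any count, 2.56% were lower and 1.09% higher, with intervals below 1 for 12.9% and above 1 for 11.5%. Socs3, an inhibitor induced by interleukin-6 and STAT3 that also blocks growth hormone signalling, had 90 counts with vehicle and 27 with AZD7986. Its ratio was 0.362 [0.226, 0.562]. Lepr, the leptin receptor, had 21 and 5 counts (0.287 [0.0847, 0.783]). Socs1, another member of that inhibitor family, had 10 and 3 counts, too few to show a difference (0.362 [0.0640, 1.41]).

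Several kinases, STATs and brakes of this list stood lower by less than 2-fold. Stat3, which carries the interleukin-6 signal, had a ratio of 0.626 [0.542, 0.722], and Jak1, a kinase of cytokine receptors, one of 0.706 [0.615, 0.810]. Socs6, Pias1 and the phosphatase Ptpn1, which removes phosphate from JAK2, had ratios of 0.686, 0.690 and 0.7495 with intervals below 1. The one gene of the list with an interval above 1 was Prlr, the prolactin receptor, which belongs to the same receptor family as Ghr. It had 270 and 337 counts, a ratio of 1.51 [1.28, 1.77]. Lepr also belongs to that family, so its receptors did not share a direction. For Prlr and Socs3 the start windows also hold the motif, shown here because these are the genes of the list with a match.

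Prlr, chr15:10223746-10223845, plus strand, match at −110, and Socs3, chr11:117969467-117969566, minus strand, match at −154:
Prlr: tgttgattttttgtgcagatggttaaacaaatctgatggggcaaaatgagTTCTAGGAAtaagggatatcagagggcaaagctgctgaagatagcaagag
Socs3: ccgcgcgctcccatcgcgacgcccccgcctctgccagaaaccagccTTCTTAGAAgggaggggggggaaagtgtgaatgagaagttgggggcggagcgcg

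In the rest of the IGF system, 12 genes were counted. By the fold rule 1 was lower, beside 2.01% of all genes and 2.87% of those whose summed count reached 20. This was Igf1r, the receptor of IGF1, with 33 counts with vehicle and 3 with AZD7986, a ratio of 0.110 [0.0215, 0.350]. The ratio rests on 3 counts in the AZD7986 pool. Among the binding proteins Igfbp2, which hepatocytes secrete, was higher (1120 and 1439 counts, 1.55 [1.43, 1.68]). Igfbp1, which is induced in fasting and liver injury and restrains IGF1, was lower (1868 and 1106 counts, 0.715 [0.663, 0.770]). Igfbp4, the most counted of them, was at 0.943 [0.901, 0.987]. The median log2 ratio of the 8 genes whose summed count reached 20 was −0.25.

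**Figure D4:**
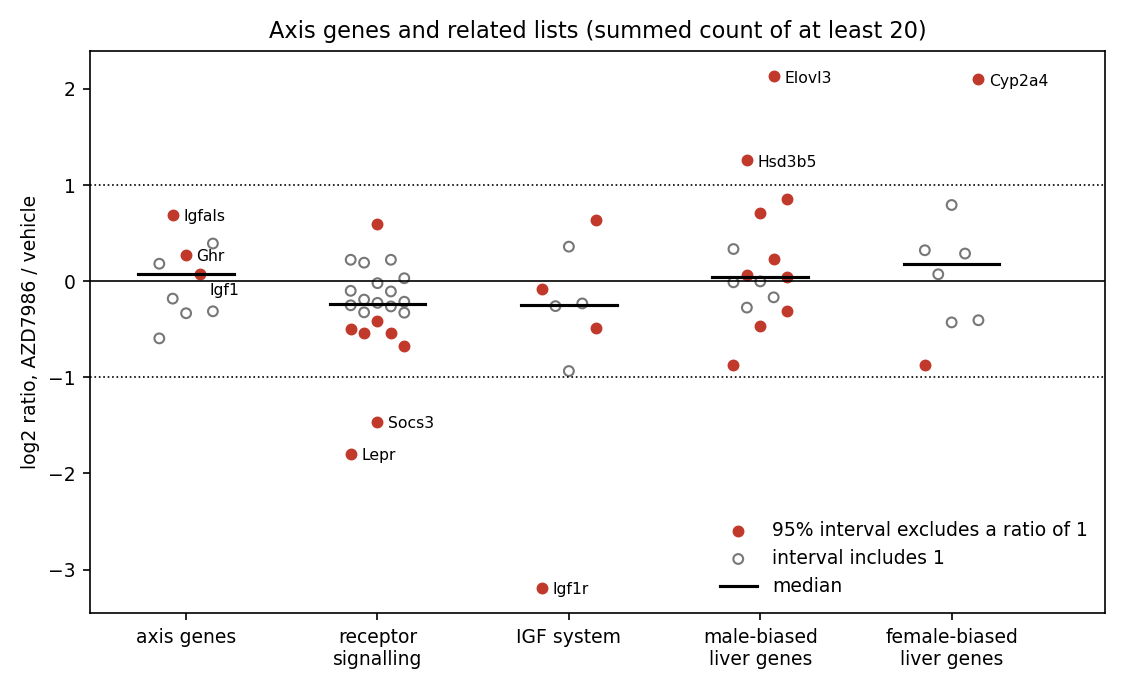
Log2 ratio of the AZD7986 pool over the vehicle pool for genes whose summed count reached 20 in the axis and in 4 related lists, filled red where the 95% counting interval excludes 1, with a bar at the median and names at genes past 2-fold (dotted lines) or, for the axis, with intervals that exclude 1. The axis stays within 2-fold, while Socs3, Lepr and Igf1r lie below it and Elovl3, Hsd3b5 and Cyp2a4 above it.

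Genes known to follow the male growth hormone pattern through STAT5B in mouse liver gave no common direction. Of 16 such genes, 2 were higher by the fold rule and 0 lower, beside 1.47% and 2.01% of all genes. Among genes whose summed count reached 20, these shares were 1.85% and 2.87%. The interval lay above 1 for 7 of the 16 and below 1 for 3, beside 10.4% and 8.81% of all genes. The shares by interval are larger among deeply counted genes, as given above. Elovl3, a fatty acid elongase, had 62 and 225 counts (4.38 [3.29, 5.90]), and Hsd3b5, a steroid dehydrogenase typical of adult male liver, 181 and 358 counts (2.39 [1.99, 2.87]). Slco1a1, an organic anion transporter, stood at 1.81 [1.64, 1.99], and Mup21, a pheromone carrier, at 1.64 [1.51, 1.78]. On the other side, Cyp4a12b, a fatty acid hydroxylase, had 113 and 51 counts and a ratio of 0.545 [0.383, 0.765], and Selenbp2, a selenium-binding protein, 3496 and 2094 counts and a ratio of 0.723 [0.684, 0.763]. The highly counted Serpina1e (1.04), Mup3 (1.03) and Mup20 (0.808) lay closer to 1, and 0.04 was the median log2 ratio of the 15 genes with at least 20 counts. Mup, Cyp4a12 and Serpina1 genes have near-identical copies, so their reads may have been divided among copies.

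Bcl6, a repressor that growth hormone holds down through STAT5 in mouse liver, had 90 and 94 counts and a ratio of 1.26 [0.934, 1.70]. 1 of its start windows held the STAT5 letters 3 times, the most among windows of the axis and these lists, and its stretch is shown for that reason.

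Bcl6, chr16:23981354-23981463, minus strand, matches at −168, −122 and −88:
Bcl6: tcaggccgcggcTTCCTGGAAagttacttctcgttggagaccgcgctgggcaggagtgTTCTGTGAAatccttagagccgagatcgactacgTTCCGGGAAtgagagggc

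Genes of the female pattern were few in counts in these male livers. Of 19 counted, 8 had a summed count of at least 20, and 4 had 0 counts in the vehicle pool and at most 3 in the AZD7986 pool. The fold rule for higher genes was met by 5 of 19, beside 1.47% of all genes. The rule for lower genes was met by 0, beside 2.01%. Of the 5 higher genes, Cyp2a4 alone reached a summed count of 20. Among all genes that reached it, 1.85% were higher. The interval lay above 1 for 5 of the 19 and below 1 for 1, beside 10.4% and 8.81% of all genes. Cyp2a4, a steroid hydroxylase, had 269 and 955 counts (4.28 [3.74, 4.92]), and its reads may be shared with a near-identical copy. Acot3, a peroxisomal thioesterase, had 3 and 16 counts (6.44 [1.84, 34.5]), Cyp2b9 5 and 14 (3.38 [1.15, 12.0]), and the transporters Slc22a27 (18.1 [2.79, 762]) and Slc22a26 (8.45 [1.09, 381]) had 1 count each with vehicle and 15 and 7 with AZD7986. Cyp17a1 (1.05 [0.797, 1.38]), an enzyme of steroid synthesis, and Abcd2 (1.22 [0.903, 1.65]), a peroxisomal transporter, were among the most counted and had intervals that include 1. Fmo2, a flavin monooxygenase, was lower (62 and 28 counts, 0.545 [0.336, 0.865]). Genes of both sex patterns were thus among the higher ones, and the median log2 ratio of the 8 female-pattern genes whose summed count reached 20 was 0.18. It was 0.29 with a minimum count of 10, 0.30 with a minimum of 50, 0.32 with no minimum and −0.092 without scaling.

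**Figure D5:**
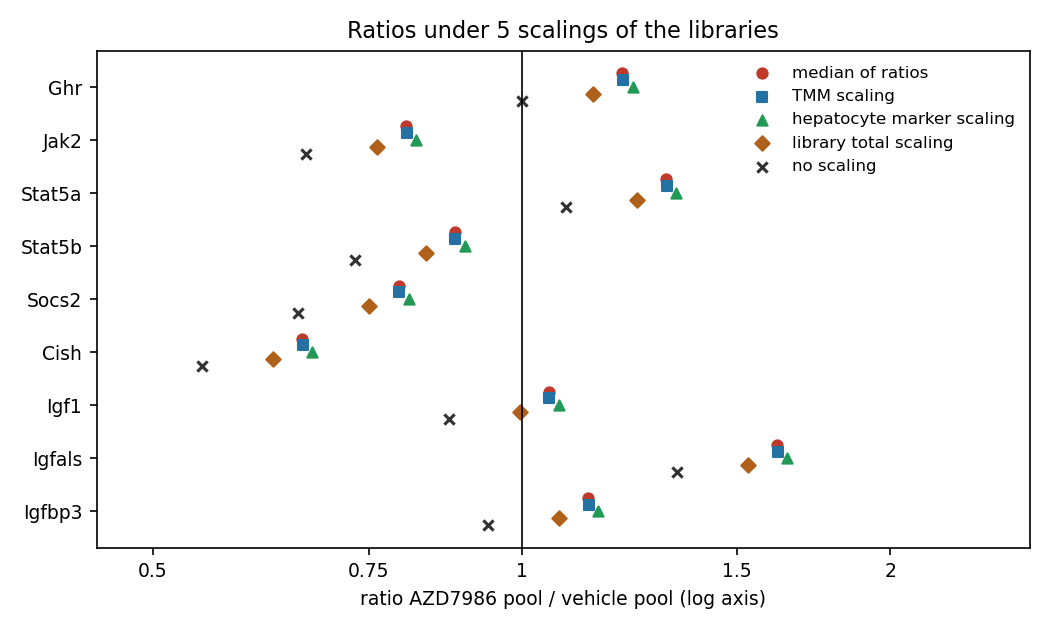
Ratio of the AZD7986 pool over the vehicle pool for each axis gene on a log axis under 5 scalings of the libraries (markers), with a line at 1. Igfals stays above 1 under all 5, Cish, Socs2, Jak2 and Stat5b stay below 1, and Igf1 (0.872 to 1.07) and Igfbp3 (0.939 to 1.16) lie on either side of 1 depending on the scaling.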

How the data were processed

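Liver RNA of 2 pools, 1 library each, was analysed, with groups and doses taken from the sample titles and protocols and the pooling, age and fasting from the paper. The authors sequenced 3′ ends of transcripts (MACE), removed duplicates by molecular identifiers, mapped reads to mm10 and deposited the count per gene from HTSeq. They also deposited CPM (headed TPM, each count over its library total) and a scaled signal, each count divided by a size factor. Aligner, annotation release and strand setting were not given in the sources used here. Another 6 columns of values were not used. Entries without a symbol held 3.70% and 3.71% of counts and were kept.

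Counts were scaled with DESeq2 1.42.0 in R 4.3.3. Ratios (a count of 0 set to 1) and exact intervals were computed with scipy 1.17.1, pandas 2.3.3 and numpy 2.4.6 under Python 3.11.15. Plots were drawn in matplotlib 3.10.9. The method was tested on simulated data. Alternatives were TMM (edgeR 4.0.16), library total, no scaling, hepatocyte marker scaling, added counts of 0.5 or 1, other minimum counts and a 99.9% interval. Gene coordinates are from GENCODE M21 on GRCm38, the mm10 assembly. Trf was matched to the listed name Tf by synonym. Igf2, Il6, Cyp3a16, Sult2a1 and Hao2 were not analysed here. Members and lists were chosen with earlier results of these data known. Named are the 9 members and, in related lists, the 3 most counted genes, the 3 that differed most with an interval off 1, and those past the fold rule. Socs1, Socs6, Pias1, Ptpn1, Bcl6, Slco1a1, Mup21, Selenbp2, Fmo2 and Tnf fall outside this rule and were picked after their values were seen. Cd4, Cd79a, Ly6g and Cd3e also fall outside it and were named for their counts of 0.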

Additional observations from a re-analysis of the deposited data

How the results depend on the processing

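Each group holds 1 library, so no replicate could be left out. No paired analysis was possible because each group has 1 library. Scaling was the choice that mattered: no scaling shifts every log2 ratio by −0.27 and library total scaling by −0.08. Without scaling, 1 member (Igfals) had an interval above 1 and 4 (Igf1, Stat5b, Socs2, Jak2) below it, against 3 and 0. Igf1 went to 0.997 with library totals and 0.872 without scaling, the summed outputs to 0.899 and all members summed to 0.913 without scaling. The scalings of summed members and of counts over all genes were chosen after seeing the data. Without scaling the median log2 ratio of male-pattern genes went from 0.04 to −0.23 and that of cytokine signals from −0.37 to −0.64. Kupffer markers went from 0.0008 to −0.27, perivenous ones from 0.96 to 0.69, periportal ones from 0.23 to −0.043 and hepatocyte markers from 0.051 to −0.22. The hepatocyte median was −0.027 with library totals and 0.079 with hepatocyte marker scaling. The cytokine median was −0.56 at a minimum count of 10 or with no minimum. Over all genes, the 359 higher and 490 lower genes (42.3% higher) became 149 and 1153 without scaling (11.4%), intervals above and below 1 went from 2529 and 2147 to 900 and 5125, and 165 of the higher genes are protein-coding. With few counts, as for Cish and Stat5a, a 2-fold difference could not be told from none.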

Other observations

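Cytokines known to blunt growth hormone signalling in the liver, and their receptors, were counted beside the axis. Of 6 genes, 1 was lower by the fold rule, Il1b, which encodes interleukin-1β (46 counts with vehicle and 14 with AZD7986, 0.367 [0.186, 0.680]), beside 2.01% of all genes. The receptor Il1r1 had 233 and 115 counts (0.596 [0.472, 0.748]) and Il6st, the signal chain of the interleukin-6 receptor, 758 and 486 (0.774 [0.689, 0.868]). Il6ra (1.10 [0.898, 1.34]) and Tnfrsf1a (1.10 [0.974, 1.23]) had intervals that include 1, and Tnf had 9 and 4 counts. Il1b and Tnf are known mainly from leukocytes. Neutrophil markers summed to 978 counts with vehicle and 313 with AZD7986 (0.386 after scaling). Monocyte and macrophage markers summed to 2912 and 1909 (0.791), and Kupffer cell markers to 3163 and 2579 (0.984). The part of cell content in the ratios of these cytokines and receptors was not tested.

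Past the fold rule were 0 of the 3 genes known to rise in mouse liver that lacks STAT5. Among all genes 1.47% were higher and 2.01% lower by it, so a count of 0 in 3 does not set these genes apart. The fatty acid transporter Cd36 had 432 and 304 counts (0.849 [0.731, 0.986]) and the nuclear receptor Pparg 37 and 37 (1.21 [0.744, 1.96]). Vldlr, the receptor for triglyceride-rich lipoprotein, had 2 and 4 counts, too few for a comparison.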
